A study of Mus musculus with 6 samples.

Results

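The 10 genes described here encode transcription factors of blood stem and progenitor cells and were measured in MLL-AF9 leukemias: they are Mecom, Prdm16, Gata2, Runx1, Erg, Fli1, Lmo2, Hlf, Tal1 and Etv6. The 10 genes were chosen by name from 29374 genes with an estimated read, of which 16656 passed the filter on low counts and were tested, all 10 among them. RNA was sequenced from CD11b+Gr1+ splenocytes, a myeloid fraction sorted by flow cytometry from tumor-bearing mice, in 3 Rpl22+/+ and 3 Rpl22-/- libraries. All 6 carry Mll-AF9, a knocked-in fusion oncogene that drives acute myeloid leukemia, and the compared allele is a germline loss of Rpl22, which encodes an RNA-binding protein of the large ribosomal subunit. The methods give a C57BL/6 background for the Rpl22 mice, with which the MLL-AF9 mice were crossed, and state none for the latter. The methods describe the mice of the study as young adults, and no age is tied to the sequenced leukemias in the sources used here. The methods speak of explanted leukemias, 1 mouse is named per genotype, and no source ties the 3 libraries to separate animals, so p-values measure only the spread between libraries, which may be technical.

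These factors bind DNA together or in competition at the enhancers of stem and progenitor genes. Gata2, Runx1 with its partner Cbfb, the ETS proteins Erg and Fli1, and the complex in which Lmo2 bridges Tal1 and Ldb1 are known to occupy many of the same elements. Mecom and Prdm16 encode related zinc finger proteins with a PR domain that keep stem cells in place. Each is also known for a short form without that domain, called EVI1 for Mecom, and high EVI1 marks a poor-risk group of human acute myeloid leukemia.

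Mecom is shown first by its sequence, since the form of its RNA is what its reads bear on. The GENCODE vM21 annotation (GRCm38) places coding starts of Mecom at several distant exons of the minus strand of chromosome 3. The coding bases from the start codon (capitals) to the end of that exon are given for the MDS1 start of Mecom-207 (chr3:30509430-30509466), for an exon in between that opens Mecom-203 (chr3:30140328-30140369), and for the EVI1 start in exon 3 of Mecom-202 (chr3:29997646-29997694).
Mecom-207: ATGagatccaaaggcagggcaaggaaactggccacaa
Mecom-203: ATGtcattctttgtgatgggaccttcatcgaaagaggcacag
Mecom-202: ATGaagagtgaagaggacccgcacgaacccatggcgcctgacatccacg

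RefSeq (GRCm38.p6) gives promoter windows, from 250 bases before a transcript start to 50 bases after it, for 8 of the 10 genes (not for Fli1 and Lmo2), 14 windows in all. They are printed for Mecom and Runx1, whose forms are compared by start in the results. The Mecom windows lie at the upstream start (chr3:30509710-30510009, minus strand) and at the EVI1 start (chr3:30013155-30013454, minus strand), and those of Runx1 at its distal (chr16:92826025-92826324, minus strand) and proximal start (chr16:92697280-92697579, minus strand). Capitals mark matches, on either strand, to 6 motifs that the factors are known to bind: the RUNX motif TGTGGT, the Gata2 motif AGATAA, the ETS motif GGAAGT, the E-box CATCTG of Tal1, and GACAAGAT and GAAGATGA of the proximal and distal fingers of EVI1.
Mecom upstream: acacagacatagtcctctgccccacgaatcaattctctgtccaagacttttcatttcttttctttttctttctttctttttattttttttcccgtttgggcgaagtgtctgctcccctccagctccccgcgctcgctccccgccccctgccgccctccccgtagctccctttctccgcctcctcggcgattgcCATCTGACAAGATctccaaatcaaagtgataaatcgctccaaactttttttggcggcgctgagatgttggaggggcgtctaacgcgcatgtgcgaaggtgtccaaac
Mecom EVI1: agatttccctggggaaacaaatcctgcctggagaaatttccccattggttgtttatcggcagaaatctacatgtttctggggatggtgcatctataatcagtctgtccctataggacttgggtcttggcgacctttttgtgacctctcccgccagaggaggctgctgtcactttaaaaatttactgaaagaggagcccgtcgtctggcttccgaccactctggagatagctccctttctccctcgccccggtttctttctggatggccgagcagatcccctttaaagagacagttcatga
Runx1 distal: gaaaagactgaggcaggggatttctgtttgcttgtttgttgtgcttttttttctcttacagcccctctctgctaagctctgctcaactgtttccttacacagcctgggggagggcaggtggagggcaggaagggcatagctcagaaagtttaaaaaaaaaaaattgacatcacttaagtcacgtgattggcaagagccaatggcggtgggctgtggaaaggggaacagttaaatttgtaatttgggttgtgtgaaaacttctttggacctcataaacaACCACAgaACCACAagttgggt
Runx1 proximal: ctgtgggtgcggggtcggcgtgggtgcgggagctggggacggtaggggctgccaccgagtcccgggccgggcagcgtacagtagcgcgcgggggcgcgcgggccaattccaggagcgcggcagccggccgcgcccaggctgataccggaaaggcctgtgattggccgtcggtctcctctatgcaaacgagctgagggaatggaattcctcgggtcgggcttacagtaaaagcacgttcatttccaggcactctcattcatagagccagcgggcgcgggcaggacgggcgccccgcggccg

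The upstream Mecom window held CATCTG 57 bases before its start and, overlapping it by 1 base, GACAAGAT at 52 bases before it. GACAAGAT occurred in 242 of all 32851 promoter windows (0.737%) and CATCTG in 17.2%. The distal Runx1 window held TGTGGT on the minus strand of the window at 28 and at 36 bases after its start, a motif found in 16.8% of all windows. Neither the EVI1 window nor the proximal Runx1 window held any of the 6 motifs. Of the 14 windows, 1 held TGTGGT, 2 held AGATAA (11.2% of all windows), 0 held GGAAGT (23.8%), 2 held CATCTG, 1 held GACAAGAT and 1, at Tal1, held GAAGATGA (1.45%). A match is a match of letters only.

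RNA of the targeted gene checked the labels. Rpl22 was at 148, 235 and 152 CPM (reads scaled to a common library size) in Rpl22+/+ libraries and 58.3, 89.9 and 73.5 CPM in Rpl22-/- libraries, a log2 fold change of -1.27 ± 0.25 (SE) with an adjusted p of 0.0107. The remaining reads were 2182 or more in each Rpl22-/- library. Depth was 35828500 to 102866127 estimated reads. Rpl22+/+ replicate 2 stood apart, correlating across genes at 0.926 with replicate 1 of its genotype, against 0.992 between replicates 1 and 3. Of the myeloid markers, Mpo, Elane, Prtn3 and Ctsg, which are granule genes of promyelocytes, rose and Itgam (CD11b), Ly6g and Lyz2 fell, so that 4 of 11 were called higher and 3 lower. B-cell markers summed to 568 to 722 CPM in Rpl22+/+ and 359 to 551 CPM in Rpl22-/- libraries, with 0 of 6 called, and T-cell markers to 64.2 to 93.6 and 27.9 to 44.7 CPM, with 5 of 6 called lower.

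Mecom, Prdm16, Gata2, Lmo2 and Tal1 rose in Rpl22-/- leukemias, Hlf fell, and Etv6, Runx1, Erg and Fli1 were not called. A gene was called with an adjusted p under 0.05 (quasi-likelihood test of edgeR, Benjamini-Hochberg adjustment over all genes tested) and an absolute log2 fold change over 1. Thus 5 of 10 were called higher, against 8.93% of all genes tested, and 1 of 10 lower, against 8.54%. The median log2 fold change of the 10 was 1.18, beside 0.07 over all genes. Libraries of the genotypes did not overlap for 8 of the 10, against 46.1% of all genes. Without Rpl22+/+ replicate 2 the counts were again 5 higher and 1 lower.

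**Figure D1:**
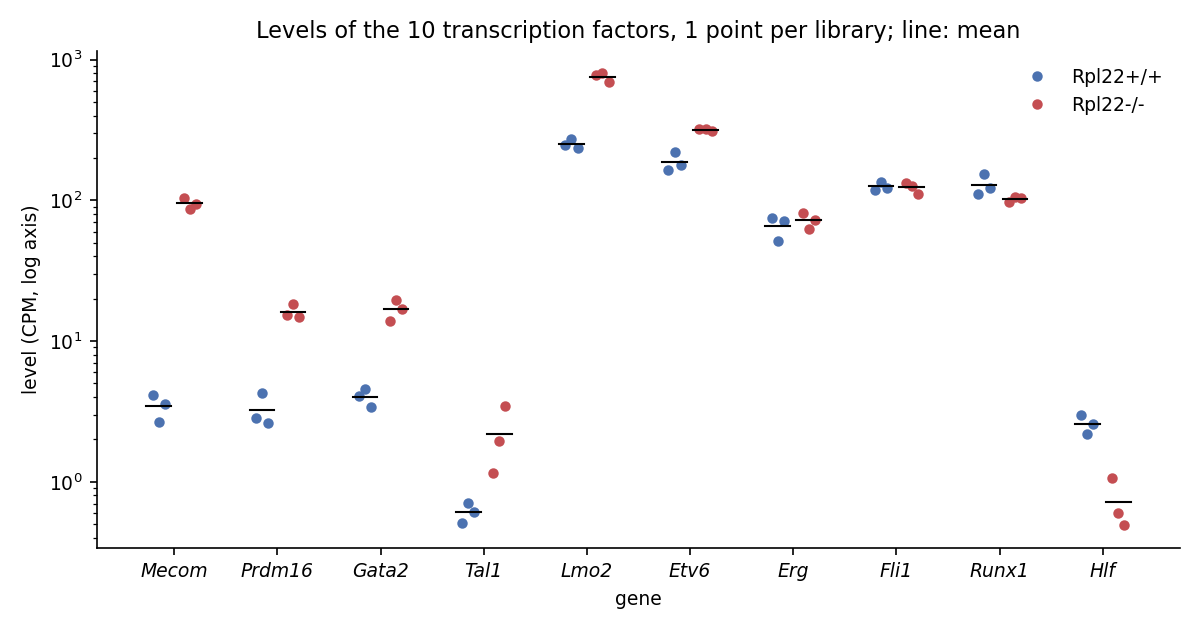
CPM (log axis) of each gene in each library, 3 Rpl22+/+ and 3 Rpl22-/- points per gene with a line at the mean, ordered by fold change. Mecom moves from 2.66 to 4.14 CPM up to 87.5 to 104 CPM, while the points of Erg and Fli1 overlap between genotypes.

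Mecom (chr3:30005445-30602157 on GRCm39, minus strand) rose the furthest of the 10. Its level was 4.14, 2.66 and 3.58 CPM in the 3 Rpl22+/+ libraries and 104, 87.5 and 94.9 CPM in the 3 Rpl22-/- libraries. No library of either genotype came near the other. The means were 3.46 ± 0.75 (SD, n = 3) and 95.5 ± 8.30 CPM (SD, n = 3), and the log2 fold change was 4.78 ± 0.22 (SE, edgeR adjusted p = 5.52e-05). This difference is 27.6-fold, and it stayed between 4.11 and 4.93 on the log2 scale over 16 alternatives.

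Prdm16 (chr4:154400582-154721330 on GRCm39), the relative of Mecom that is likewise required in blood stem cells, was at 2.82, 4.29 and 2.61 CPM in Rpl22+/+ libraries and at 15.4, 18.4 and 14.8 CPM in Rpl22-/- libraries. Its groups were separate, with a log2 fold change of 2.32 ± 0.24 (SE, edgeR adjusted p = 0.000924). Prdm16 lies 1.98 Mb from Rpl22 itself on chromosome 4, where 734 genes averaging 50 counts or more had a median log2 fold change of 0.43. Within 5 Mb of Rpl22, 35 of 123 genes tested were called higher (28.5%), beside 16.1% of 708 on the rest of the chromosome. Among these tested genes the median log2 fold change was 0.60 within 5 Mb of Rpl22 and 0.42 on the rest. The part of this position in the rise of Prdm16 was not tested, and the rise was 1.89 above the median of the chromosome.

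Gata2, the GATA factor of stem and early progenitor cells, was at 4.10, 4.55 and 3.39 CPM in Rpl22+/+ and 14.0, 19.6 and 16.8 CPM in Rpl22-/- libraries. The log2 fold change of 2.06 ± 0.20 (SE, edgeR adjusted p = 0.00071) corresponds to 4.18-fold. Lmo2, the bridging protein, was the most abundant of the 10 per transcript length in both genotypes. It rose 3.03-fold, from 245, 271 and 235 CPM to 783, 799 and 692 CPM, with a log2 fold change of 1.60 ± 0.14 (SE, edgeR adjusted p = 0.000517). Tal1, its basic helix-loop-helix partner, was the scarcest by the same measure in Rpl22+/+ libraries, with 36, 52 and 46 reads, against 43, 194 and 363 reads in Rpl22-/- libraries. In CPM this was 0.513, 0.702 and 0.615 against 1.15, 1.94 and 3.43, groups that did not overlap, with Rpl22-/- replicate 3 the highest. Its log2 fold change of 1.84 ± 0.43 (SE) had an edgeR adjusted p of 0.0212, and the call was lost without Rpl22+/+ replicate 1 or 3 or Rpl22-/- replicate 2 or 3, with adjusted p between 0.015 and 0.0774 over the 6 omissions. Tal1 also lies on chromosome 4, 37.5 Mb from Rpl22, and its log2 fold change was 1.40 above the median of that chromosome.

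Markers of red cells moved with Gata2, Lmo2 and Tal1, which also act in that lineage. Summed over 10 genes, they were at 85.7 to 129 CPM in Rpl22+/+ and 592 to 1158 CPM in Rpl22-/- libraries, and 9 of 10 were called higher, none being at 0 in all libraries. The globin genes held most of the sum, and Klf1, which red cell precursors need, was at 0 in 2 of 3 Rpl22-/- libraries. The mean of Klf1 was 0.465 times the authors' base mean, so its level may be incomplete here, and the part of unmatched transcripts in the zeros was not tested. Gata1, the GATA factor of that lineage, was at 0.328, 0.257 and 0.227 CPM against 0.241, 0.719 and 1.44 CPM and was not called (edgeR adjusted p = 0.106). Among the Rpl22-/- libraries, replicate 3 was the highest in Tal1, Gata1, Epor and Ermap and the lowest in the 4 globin genes listed. The part of red cell RNA in these results was not tested, and in bulk RNA more cells of a type and more RNA per cell cannot be told apart. Megakaryocyte and platelet markers summed to 51.8 to 66.4 CPM in Rpl22+/+ and 23.8 to 24.9 CPM in Rpl22-/- libraries, with 1 of 9 called higher (Vwf) and 1 lower (Itgb3). Itgb3 alone was at 47.1, 60.2 and 47.2 against 10.3, 11.2 and 10.6 CPM, and Vwf at 0.983, 1.09 and 1.24 against 9.20, 8.97 and 9.62 CPM, so the sum describes these 2 genes more than the list. Those of mast cells and basophils summed to 7.67 to 13.9 and 7.91 to 16.0 CPM, with 2 of 8 called lower and Tpsab1, Tpsb2 and Mcpt4 at 0.

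Hlf, a PAR-domain leucine zipper factor typical of stem cells, went the other way. It was at 2.98, 2.20 and 2.58 CPM in Rpl22+/+ and 1.07, 0.599 and 0.491 CPM in Rpl22-/- libraries, from 209, 163 and 193 reads against 40, 60 and 52. The groups were separate and the log2 fold change was -1.87 ± 0.35 (SE, edgeR adjusted p = 0.00963).

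Etv6, an ETS repressor, passed the adjusted p but not the fold. Its 3 Rpl22+/+ libraries were at 164, 220 and 178 CPM and its 3 Rpl22-/- libraries at 324, 319 and 312 CPM, without overlap, which gave a log2 fold change of 0.76 ± 0.15 (SE, edgeR adjusted p = 0.0118). Runx1 was at 111, 153 and 122 CPM against 96.7, 105 and 104 CPM, close but without overlap, with a log2 fold change of -0.33 ± 0.16 (SE, edgeR adjusted p = 0.167). Erg was at 74.9, 51.6 and 71.3 CPM against 81.2, 62.3 and 72.3 CPM, and Fli1 at 118, 136 and 122 CPM against 134, 126 and 111 CPM. Both overlapped between genotypes, with log2 fold changes of 0.13 ± 0.19 and -0.02 ± 0.13 (SE) and edgeR adjusted p of 0.682 and 0.932. The sign of Erg turned without Rpl22+/+ replicate 2 (-0.07) and that of Fli1 with 4 alternatives (up to 0.11), so no direction is given for either. Fli1 lies on chromosome 9, where the median log2 fold change was 0.34, while its neighbor and relative Ets1, 93.4 kb away, fell from 241 to 274 CPM down to 104 to 110 CPM.

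**Figure D2:**
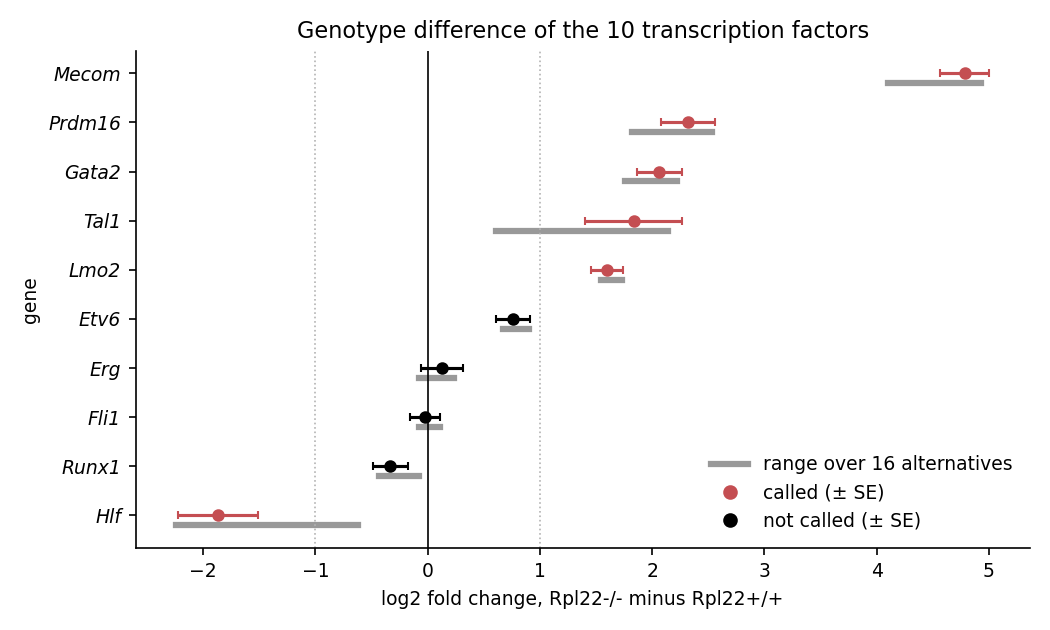
Log2 fold change of each gene (x axis, Rpl22-/- minus Rpl22+/+) with its SE, called genes in red, and below it in gray the range over 16 alternatives. Mecom stays at 4.11 or above in all 16, and the ranges of Erg and Fli1 include 0.

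Per transcript length, the order of the 10 genes also differed between genotypes. In TPM, which scales reads for length, Lmo2 led with 236 ± 20.6 (SD, n = 3) in Rpl22+/+ libraries. Runx1 (50.7), Fli1 (47.7), Etv6 (46.1) and Erg (37.8) followed, each overlapping the next. Gata2 (1.61), Prdm16 (1.39), Mecom (1.13) and Hlf (1.02) formed a low group with overlapping neighbors, and Tal1 was last at 0.178 TPM. In Rpl22-/- libraries Mecom stood at 35.9 ± 7.67 TPM (SD, n = 3), which overlapped Erg (42.2) and was apart from Gata2 (7.82). Lmo2 was at 737 and Etv6 at 85.7 TPM, both apart from the next gene, and Hlf was last at 0.312 TPM.

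Reads of Mecom were next divided among its 17 annotated transcripts, of which 16 had an estimated read. Salmon divides reads among overlapping transcripts by a model, and no reads across junctions were at hand, so these are estimates for annotated forms. Of 75 transcripts of the 10 genes, 43 were tested, 12 were called higher, against 2.55% of all 52589 transcripts tested, and 1 lower, against 2.99%. Of the 12, 7 were of Mecom and 4 of Lmo2, so they are not separate results. Mecom-203 and Mecom-213, described below, are among the 12 and passed the filter on low counts only through the Rpl22-/- libraries. Nothing is therefore read from this count. With the replicate number as a block, 622 transcripts in all were called higher and 909 lower in place of 1340 and 1570. Of the transcripts of the 10 genes, 7 were called higher without Rpl22+/+ replicate 3, 6 without Rpl22-/- replicate 1, 7 without Rpl22-/- replicate 2 and 5 without Rpl22-/- replicate 3, while those of all transcripts fell to 384, 427, 403 and 399.

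Mecom-203, which opens with the exon 369 kb downstream of the most upstream start printed above, had 0, 0 and 0 reads in Rpl22+/+ libraries and 966, 1980 and 1254 reads in Rpl22-/- libraries. Per estimated read of the libraries, a floor of 3 reads over the Rpl22+/+ group would put Mecom-203 1378-fold higher. The floor covers counting error only and not the division of reads among forms by Salmon, so this is no lower bound. Mecom-203 held 20.0% of Mecom reads in the mean of the Rpl22-/- libraries. In the edgeR test of each transcript's share of its gene, 0.633% of all 46279 transcripts passed, and of 42 transcripts of 9 of the 10 genes, 2 did, Mecom-203 and Mecom-213. Both had 0 reads in every Rpl22+/+ library and passed the filter on low counts only through the Rpl22-/- libraries, so they had to differ and nothing is read from this count or from their calls. Mecom-203 had reads in 3 of 3 Rpl22-/- libraries, and 756 reads of Mecom in all were found in the Rpl22+/+ libraries.

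Mecom-207 and Mecom-213 are the annotated forms whose coding sequence begins at the MDS1 start, and both are incomplete at the 3′ end in the annotation. Mecom-213 had 0, 0 and 0 reads against 216, 457 and 677 reads, or 443-fold over the same floor, which is no lower bound either. Mecom-207 had 16, 4 and 0 reads against 270, 913 and 983 reads, with a log2 fold change of 6.47 ± 1.10 (SE, edgeR adjusted p = 0.0249). With the replicate block Mecom-207 was not called (edgeR adjusted p = 0.0741). Mecom-207 and Mecom-213 together took 5.76%, 2.09% and 0% of the reads of coding Mecom transcripts in Rpl22+/+ libraries and 13.0%, 16.0% and 17.3% in Rpl22-/- libraries.

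Of the 4 protein-coding forms that begin translation at the EVI1 start, Mecom-212, Mecom-202 and Mecom-206 rose as well. Mecom-212, which starts at the upstream promoter but skips to the EVI1 start codon, had 60, 68 and 71 reads against 1190, 2062 and 3108 reads. Mecom-202, from the EVI1 promoter itself, had 89, 49 and 62 against 629, 1733 and 1779 reads. Their log2 fold changes were 4.83 ± 0.25 and 4.17 ± 0.28 (SE), both called in each of 11 alternatives, and Mecom-206 rose by 3.42 ± 0.40 (SE). Mecom-204, the other protein-coding form with this start codon, had 37, 0 and 44 reads against 0, 0 and 0. It was below the filter on low counts. Mecom-208, annotated for nonsense-mediated decay, has the same start codon, with 6, 0 and 0 against 5, 41 and 72 reads. The 4 protein-coding forms with the EVI1 start codon held 91.0% ± 10.2 (SD, n = 3) of coding Mecom reads in Rpl22+/+ and 58.6% ± 4.33 (SD, n = 3) in Rpl22-/- libraries.

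**Figure D3:**
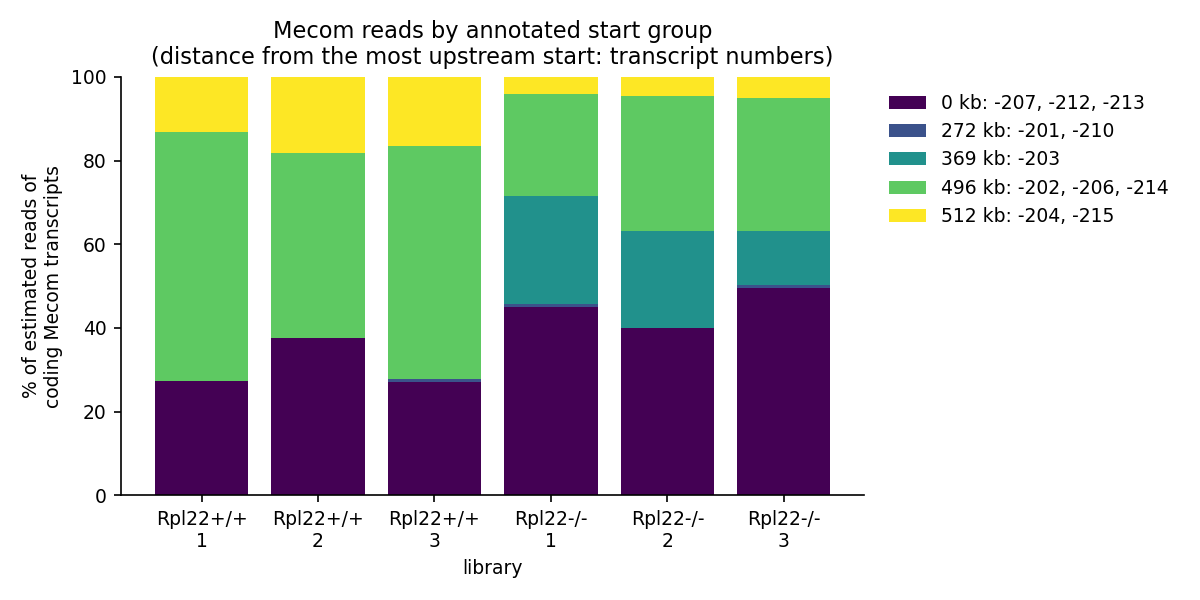
Share of the estimated reads of coding Mecom transcripts (y axis, percent) in each of the 6 libraries, split by annotated start group, named by its distance in kb from the most upstream start. The group at 369 kb, which is Mecom-203, is absent in the Rpl22+/+ libraries and holds 13.0% to 25.9% in the Rpl22-/- libraries, while the group at 496 kb falls from between 44.1% and 59.5% to between 24.2% and 32.2%.

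Annotated starts were also grouped where neighboring starts lay over 10 kb apart. By that rule, the Mecom transcript that starts in the upstream group and ends in the last coding exon of the longest protein was Mecom-212 alone, which has the EVI1 start codon and not that of MDS1. It held 21.5%, 35.6% and 27.1% of coding Mecom reads in Rpl22+/+ libraries and 31.9%, 24.1% and 32.3% in Rpl22-/- libraries, a mean difference of 1.35 percentage points. All transcripts of the upstream group together held 27.3%, 37.6% and 27.1% against 44.9%, 40.1% and 49.5%, without overlap. For Prdm16 the annotation holds no pair of a long and a short form, since its 7 coding transcripts begin at 1 start codon. Deposited transcripts that did not match the annotation are not in these shares, and forms of Mecom or Prdm16 may be among them. Their reads were divided unevenly between libraries, with Prdm16-204 at 122, 222 and 0 against 352, 1056 and 789 reads, and no Prdm16 transcript was called.

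The distal start of Runx1, which is known to be used by definitive stem cells, held 39.7%, 34.3% and 37.6% of its coding reads in Rpl22+/+ libraries and 61.4%, 49.1% and 47.2% in Rpl22-/- libraries. The groups did not overlap, and the difference of 15.3 percentage points had the smallest p that an exact two-sided permutation test of 3 against 3 can give, 0.1 (0.4 adjusted over 4 shares), so the design cannot pass 0.05. Reads of the distal Runx1-201 were 3007, 3776 and 3291 against 2135, 4929 and 4786, and those of the proximal Runx1-202 were 2472, 3960 and 3156 against 656, 2259 and 2477. Scaled for depth, Runx1-201 was at 41.3, 57.6 and 43.1 CPM against 52.9, 50.5 and 44.9 CPM. Its log2 fold change was 0.06 ± 0.19 (SE, edgeR adjusted p = 0.909). Runx1-203, also proximal, had -0.55 ± 0.32 (SE, edgeR adjusted p = 0.427), and neither was called. Runx1-202 had a log2 fold change of -1.11 ± 0.28 (SE, edgeR adjusted p = 0.0762, and 0.0228 to 0.233 over 11 alternatives) and was not called. The upstream starts of Erg held 8.90%, 18.1% and 13.6% against 22.3%, 16.0% and 16.7% (exact permutation p = 0.3), and the upstream start of Lmo2 held 29.7%, 32.0% and 37.0% against 30.2%, 36.0% and 33.6% (exact permutation p = 0.9). The adjusted values over the 4 shares were 0.6 and 0.9, and for Mecom-212 p was 0.9 before and after adjustment. The share of the MDS1 start codon was not among the 4.

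**Figure D4:**
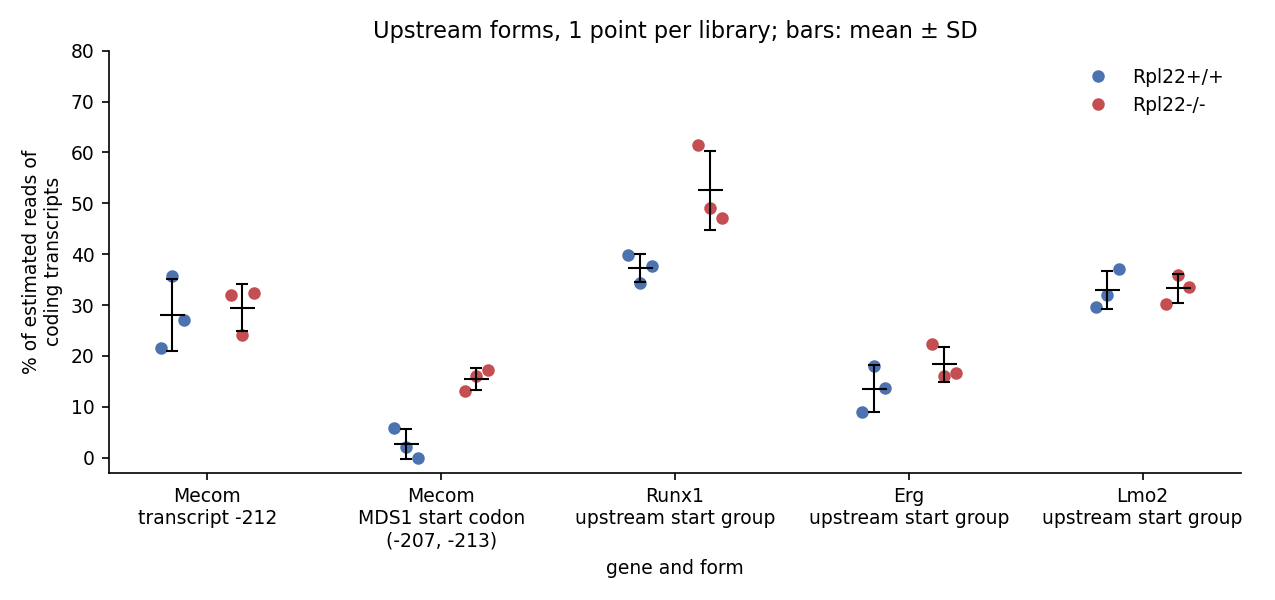
Percent of estimated coding reads in Mecom-212, in the Mecom forms with the MDS1 start codon and in the upstream start group of Runx1, Erg and Lmo2, 1 point per library with mean ± SD (n = 3) for each genotype. The points of Runx1 and of the MDS1 start codon do not overlap between genotypes, and those of Mecom-212, Erg and Lmo2 do.

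The rise of Lmo2 was spread over transcripts of both starts, and of the Gata2 transcripts 1 was called. Lmo2-208, from the upstream start, went from 5103, 6414 and 6509 to 8842, 28721 and 24563 reads, and Lmo2-203, from the downstream start, from 7896, 9238 and 7239 to 14976, 36743 and 34697 reads. Both were called, as were Lmo2-202 and Lmo2-204, but over 11 alternatives Lmo2-208 was called in 7, Lmo2-203 in 8 and Lmo2-202 and Lmo2-204 in 6 each, with adjusted p up to 0.0963. Gata2-202 held 83.0% of Gata2 reads in the mean of Rpl22+/+ and 87.5% in that of Rpl22-/- libraries and was called (log2 fold change 2.08 ± 0.28, SE, edgeR adjusted p = 0.0125), while Gata2-201 was not (adjusted p = 0.354). Hlf-201, the coding transcript of Hlf with the most reads, fell from 114, 90 and 106 to 12, 39 and 30 reads (edgeR adjusted p = 0.0242, and 0.0733 with the replicate block). The noncoding Hlf-203 held 43.2% of Hlf reads in the mean of Rpl22+/+ libraries. Etv6 divided its reads between Etv6-201, at 44.7% and 48.3% of the gene in the 2 genotypes, and Etv6-202, at 53.5% and 49.7%, which begins translation downstream. Fli1-201 held 99.9% and 99.8% of Fli1 reads, and Tal1-201 held 100% of those of Tal1 in Rpl22+/+ and 95.8% in Rpl22-/- libraries. Erg-207 led Erg with 54.1% and 52.5%, followed by Erg-203 with 21.2% and 17.5%, and Erg-202, Erg-208 and Erg-204 held most of the rest.

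No partner of these factors was called. Of 21 proteins that form complexes with them (Cbfb, Ldb1, the E proteins, ETO proteins, and the corepressors of EVI1 among them), 19 were tested and 0 were called by edgeR in either direction, against 17.5% of all genes tested, while 4 of 19 passed the adjusted p alone, against 27.6%, all higher (Ssbp2, Ssbp3, Hdac1 and Hdac2). The difference between these shares was not tested. Ssbp3 and Hdac1 lie on chromosome 4, with log2 fold changes 0.47 and 0.41 above its median, and the part of this position was not tested. At an unadjusted p under 0.05 edgeR gave 6 of 19, beside 6498 of all 16656 genes, and the DESeq2 test and limma-voom called 0 too, while library size alone, limma on log2 TPM or the omission of Rpl22+/+ replicate 2 gave 1 higher. The median log2 fold change of the partners was -0.01. Cbfb, with which Runx1 binds DNA, was at 142, 163 and 138 CPM against 129, 150 and 126 CPM, and Ldb1, which Lmo2 joins to Tal1, at 105, 132 and 106 CPM against 101, 115 and 109 CPM. Both overlapped between genotypes.

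Paralogs of the 10 factors were called in 5 of 33 tested, or 15.2%, close to the 17.5% of all genes, with a median log2 fold change of 0.00. Spic and Lmo1 rose, and Gata3, Etv5 and Ets1 fell. Lmo1, the relative of Lmo2, was at 6.47, 12.6 and 8.19 CPM against 19.2, 27.1 and 24.5 CPM (edgeR adjusted p = 0.0122). Ets1 had a log2 fold change of -1.25 ± 0.13 (SE, edgeR adjusted p = 0.000804). Gata3, which T cells express, fell from 2.07, 2.16 and 1.72 to 0.508, 0.569 and 0.793 CPM, and T-cell markers fell in the same libraries. The part of T cells in the falls of Gata3 and Ets1 was not tested. Runx2 and Runx3 were not called either (edgeR adjusted p = 0.304 and 0.0727).

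Genes of the stem and progenitor state were called in 10 of 20 tested, 7 higher and 3 lower, against 8.93% and 8.54% of all genes, with a median log2 fold change of 0.10. Tie1, a receptor kinase of vessel and stem cells, rose from 0.498, 0.311 and 0.321 to 74.5, 68.8 and 62.0 CPM, a log2 fold change of 7.50 ± 0.26 (SE, edgeR adjusted p = 2.54e-05). Of the other endothelial markers, Cdh5 and Plvap were not called and Tek, Emcn, Sox17 and Sox18 were below the filter, so that 1 gene made up the summed rise of that list from 1.80 to 2.19 CPM up to 63.3 to 75.6 CPM, beside a call of Kdr at 0.378 CPM or less. Muc13 rose by 3.41 ± 0.15 (SE) on the log2 scale, and Cd34, Kit, Myb and Sox4 were also called higher. Mycn fell from 0.684, 0.999 and 0.574 to 0.027, 0.030 and 0.009 CPM, Ikzf2 from 45.9, 7.36 and 42.3 to 6.98, 3.14 and 5.30 CPM, and Flt3, a receptor of early progenitors, from 12.3, 16.8 and 12.2 to 5.32, 7.08 and 7.30 CPM. Rpl22+/+ replicate 2 was thus low in Ikzf2. Meis1, a target of MLL fusions, was at 77.5, 75.0 and 84.9 CPM against 84.6, 71.5 and 71.2 CPM and overlapped. The 6 genes of the list at too few reads to test included Esam, Fgd5 and Hoxb5.

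**Figure D5:**
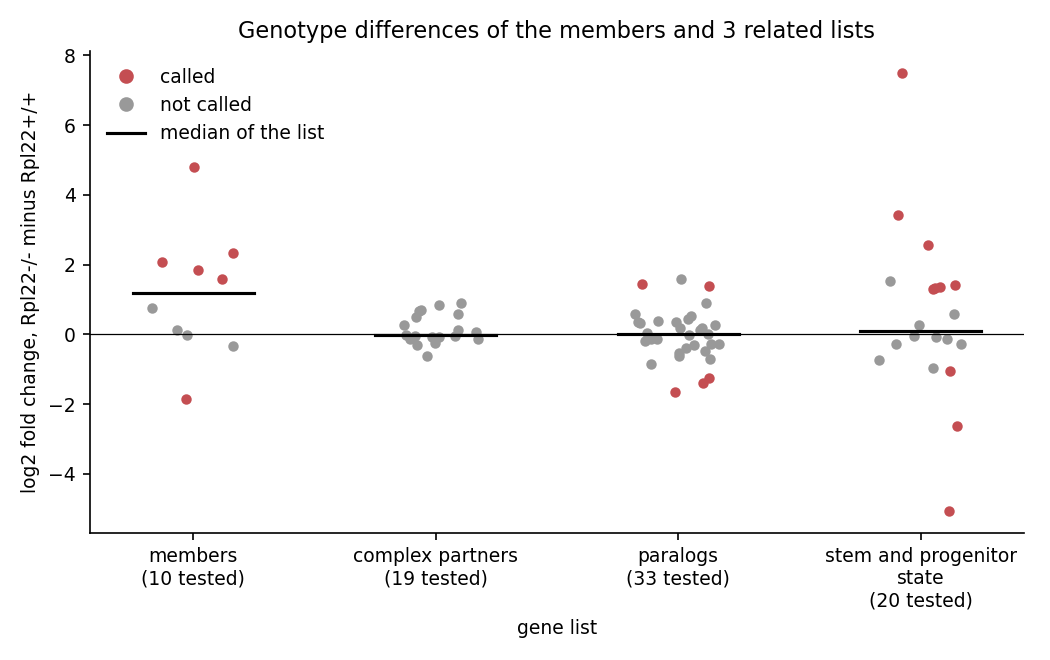
Log2 fold change (y axis, Rpl22-/- minus Rpl22+/+) of each tested gene of the 10 factors and of 3 related lists, called genes in red and the list median as a line. The factors have a median of 1.18, and the medians of the partners, the paralogs and the stem and progenitor state are -0.01, 0.00 and 0.10.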

How the data were processed

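RNA of sorted CD11b+Gr1+ spleen cells was made into stranded poly(A) libraries, and the submitters' processing notes name Trimmomatic and Salmon. The authors deposited, per library, estimated counts that Salmon assigned to each transcript from trimmed reads, and TPM, the same scaled by the authors for transcript length and library total. A table that the authors made with DESeq2 from all 6 libraries gives a base mean signal, their mean of size-factor scaled counts, and gene positions (GRCm39), which alone were read from it. It also holds their fold changes, scores and p-values, which were not used. Versions of these tools and the set of transcripts are not given in the sources used here.

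Estimated counts were summed to genes with GENCODE vM21 by transcript identifier without version (136036 of 276623 transcripts, 98.0% to 98.1% of reads) and rounded. Libraries were grouped by their titles. Genes, and transcripts, that passed filterByExpr were compared with the quasi-likelihood test of edgeR 4.0.16 in R 4.3.3 (TMM scaling, genotype as the only term). SEs were taken from the F statistic. Usage of transcripts was tested with diffSpliceDGE of edgeR, which was tested on simulated data like the other fits. There it made more false calls than the quasi-likelihood test, as did limma diffSplice and DESeq2, so calls by these are weaker evidence. Shares were compared by exact permutation. Means of the 10 genes on size factors were 0.963 to 1.00 times the authors' base mean. Of the list and marker genes, Egfl7 (0.247), Klf1 (0.465), Spi1 (0.479), Lyl1 (0.657), Prdm11 and Ehf (0.821 each) and Vwf (0.867) were below 0.9 times it, so their values, and the counts they enter, may miss reads of unmatched transcripts. Intervals of reads would cover counting error only, as would the floor of 3 reads. Whole-library depth is given with the results.

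The 10 genes, the lists and the tests were chosen with earlier results of these data known. Named are the 10 genes, their transcripts with at least 10% of the gene's reads in either genotype, the 3 called genes per list and direction with the largest change and no overlap, Rpl22, and the 5 genes with the profile nearest to Mecom. Of the genes so named, 1 is not reported here. Genes and transcripts outside this rule were named after their values were seen. The alternatives were DESeq2 1.42.0 size factors, library size only, no filter or one at an average of 50 counts, the Wald test of DESeq2, limma 3.58.1 (voom, log2(TPM + 1), log2(TPM + 0.1)), a test against a minimum fold of 2, the replicate block and each library left out. Same-numbered libraries of the genotypes deviated together over 13202 genes (r = 0.57, 0.715 and 0.129), so that the numbers were taken to pair them, although Rpl22+/+ replicate 3 correlated better with Rpl22-/- replicate 1 (r = 0.43) than with its own number. Alternatives of the usage test, the division of Mecom by coding start and the neighbors were added after seeing the data.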

Additional observations from a re-analysis of the deposited data

How the results depend on the processing

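Mecom, Prdm16, Gata2 and Lmo2 kept their direction and their call under all 16 alternatives, and Runx1 and Etv6 stayed uncalled. Scaling by library size alone shifted all genes, whose median went from 0.07 to 0.19 on the log2 scale. The call of Hlf was lost with log2(TPM + 1) (-0.62) and against a minimum fold of 2 (adjusted p = 0.0814), which left 0 genes of the 10 called lower. Tal1 was lost with log2(TPM + 1) (0.61), against a minimum fold of 2 (adjusted p = 0.16) and in 4 of 6 omissions of a library, with 4 to 5 of the 10 called higher over the omissions and 1 lower. The log2 fold change of Erg was -0.0743 without Rpl22+/+ replicate 2 and reached 0.221 over the other omissions. That of Fli1 was 0.112 with library size only, 0.083 with log2(TPM + 1) and 0.0844 with log2(TPM + 0.1), and it ranged from -0.0755 to 0.0542 over the omissions, being above 0 without Rpl22-/- replicate 3. The cause was not tested for any of these.

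The partners had 1 gene called higher with library size only, log2(TPM + 1) or log2(TPM + 0.1), and 0 to 1 over the omissions. With log2(TPM + 1) the paralogs had 1 higher and 1 lower and the stem and progenitor state 0 lower, which was 1 with log2(TPM + 0.1). A minimum fold of 2 left 0 and 0 paralogs, and 3 and 1 genes of that state. Over the omissions the paralogs had 1 to 3 higher (1 without Rpl22+/+ replicate 1 or 3 or Rpl22-/- replicate 2), and the state 1 to 3 lower (1 without Rpl22-/- replicate 1).

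Transcripts of the 10 genes called higher were 5 to 15 and called lower 0 to 2 over the omissions, fewest without Rpl22-/- replicate 3, while all transcripts gave 384 to 1904 higher and 366 to 1814 lower. Those called lower were 2 with a mean of at least 50 counts or limma-voom and 0 with the replicate block. In the usage test 1 transcript was higher with limma diffSplice or the block, and 1 to 3 were higher and 0 to 1 lower over the omissions. The difference in the share of Mecom-212 turned to -0.79 percentage points with TPM and ranged from -1.95 to 5.12 over the omissions, and that of Lmo2 ranged from -1.28 to 2.39. The replicate block changed no call of a gene among the 10.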

Other observations

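Genes beside the 10 factors were looked up on GRCm39, 2 tested genes on each side of each factor, and 9 of these 40 were called higher and 2 lower, against 8.93% and 8.54% of all genes tested. Of the 9, 5 lie on chromosome 4, whose median log2 fold change was 0.43. Another, Clic6 beside Runx1, was at 0, 0 and 0 CPM in Rpl22+/+ libraries. It passed the filter only through the Rpl22-/- libraries, so nothing is read from its call. Megf6, 40.4 kb from Prdm16, rose from 0.328, 0.270 and 0.200 CPM to 105, 107 and 83.4 CPM, a log2 fold change of 8.53 (edgeR adjusted p = 1.81e-05), beside 2.32 for Prdm16. Arhgef16, between the 2, was at 0.655, 1.27 and 0.949 CPM against 2.01, 2.28 and 1.74 CPM and was called (adjusted p = 0.0444). Pdzk1ip1, 17.0 kb from Tal1, rose by 3.14 on the log2 scale, to 0.855, 1.04 and 0.916 CPM in Rpl22-/- libraries. Mynn and Sec62, which follow Mecom on one side, were not called (adjusted p = 0.886 and 0.785). On its other side the nearest tested gene was Rpl22l1, the paralog of Rpl22, 1144 kb away, at 52.5, 69.1 and 51.5 CPM against 83.4, 118 and 93.0 CPM, with a log2 fold change of 0.77 ± 0.19 (SE, edgeR adjusted p = 0.0263), below the fold for a call, and beyond it Eif5a2 was called lower (log2 fold change -1.31, adjusted p = 0.00681).

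The 5 genes whose centered log2 CPM over the 6 libraries lay nearest to that of Mecom, among 13198 with a mean of at least 50 counts, were Clec2g, Ccdc85a, Dnajc6, Lama5 and Stag3, at Euclidean distances of 0.42 to 0.56 log2 units. Their log2 fold changes were 4.57 to 5.18. Clec2g encodes a C-type lectin and Stag3 a cohesin subunit of meiosis, and Stag3 went from a mean of 2.21 to 70.0 CPM.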
